A study of Mus musculus with 6 samples.

Results

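Srxn1, Hmox1, Prdx1, Gclc, Gclm, Nqo1, Txnrd1, Txn1, Gsr and Slc7a11 are 10 antioxidant enzyme genes among the 21827 protein-coding genes examined. For each of them, the Maf peaks and H3K27ac regions within the gene and within 50 kb of its transcript starts were collected, in the GRCm38 build with GENCODE starts. They were taken as a family by name. The peaks came from ChIP-seq on nuclei of gastrocnemius and quadriceps muscles of WT mice aged 2 months, which the methods give as C57BL/6 N. The samples were 2 Maf immunoprecipitations, 2 H3K27ac immunoprecipitations and 2 inputs, which the labels describe as biological replicates. Every sample was WT, so binding in the absence of Maf was not measured here. How many animals gave each sample is not given in the sources used here. No groups of animals were compared, and with 2 samples per target no test between samples was possible. All values are therefore a description of these 4 peak lists.

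The oxidative stress response removes peroxides and electrophiles through the glutathione and thioredoxin systems, whose enzymes are recycled with NADPH. Its genes are classically bound by heterodimers of Nfe2l2 (Nrf2) with the small Maf proteins Maff, Mafg and Mafk, at a sequence called the antioxidant response element. Maf (c-Maf) is a large Maf protein of the same bZIP family, and it binds sequences with the core TGCTGA. Working muscle fibers produce reactive oxygen species, and H3K27ac (acetylated lysine on the tail of histone H3) marks promoters and enhancers in use.

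The Maf list of replicate 1 held 74 peaks of 181 bp, and that of replicate 2 held 5467 peaks of 281 bp. The H3K27ac lists held 44887 regions in replicate 1 and 44987 in replicate 2. Joined over replicates, these gave 5486 Maf peaks and 52540 H3K27ac regions. The lists hold no read counts, so the depth behind a peak is unknown. All 9 Maf peaks described for the antioxidant enzyme genes were called in replicate 2, and none of them in replicate 1. No Maf value of these genes was therefore seen in both replicates. In replicate 1 the nearest Maf peak lay 108643 bp from Hmox1, and between 6643658 bp (Gsr) and 63726329 bp (Gclm) from the other genes. The tissue label was set against defining markers. H3K27ac covered the starts of 6 of 6 skeletal muscle fiber markers in both replicates and of 0 of 4 hepatocyte markers in either. It also covered those of 4 of 4 endothelial, 5 of 5 macrophage and 4 of 4 fibro-adipogenic markers in both replicates, and those of 1 and 2 of 2 satellite cell markers. The joined coverage around muscle fiber markers ran between 20.2% and 64.1% (median 37.2%), and medians for the other muscle-resident types lay between 11.8% and 19.6%. Their highest markers had 30.1% (endothelial), 30% (macrophage), 33.9% (fibro-adipogenic) and 17.3% (satellite cell), so all but the last type overlapped the fiber range. The part of these other cells in the results below was not tested, and a region from few nuclei cannot be told apart from a weak region in all nuclei.

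Sequences of 4 Maf peaks are shown because their centres hold matches to TGACNNNGC, the core of the antioxidant response element. The letters are those of the GRCm38.p6 reference from RefSeq on the plus strand, which is the coding strand of Prdx1, Srxn1 and Hmox1. Capitals mark matches on either strand to TGACNNNGC, to TGANTCA (the site of AP-1 factors), to the Maf core TGCTGA and to GCTGANTCA, and neighbouring matches merge into 1 run of capitals. The central 200 bp are given for the Prdx1 and Hmox1 peaks, and the pieces of the Srxn1 peak that hold matches are given separately.
Prdx1 promoter, chr4:116685303-116685502: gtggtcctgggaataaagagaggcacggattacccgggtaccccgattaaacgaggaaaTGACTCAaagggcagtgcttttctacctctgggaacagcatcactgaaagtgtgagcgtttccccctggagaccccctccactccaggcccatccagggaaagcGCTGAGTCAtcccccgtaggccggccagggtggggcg
Srxn1 promoter, chr2:152105414-152105515: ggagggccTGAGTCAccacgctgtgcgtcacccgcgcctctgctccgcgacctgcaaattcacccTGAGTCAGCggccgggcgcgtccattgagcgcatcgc
Srxn1 first exon, chr2:152105543-152105569: cagtgggcaGCTAGGTCAgagtgagac
Hmox1 9641 bp upstream, chr8:75083880-75084079: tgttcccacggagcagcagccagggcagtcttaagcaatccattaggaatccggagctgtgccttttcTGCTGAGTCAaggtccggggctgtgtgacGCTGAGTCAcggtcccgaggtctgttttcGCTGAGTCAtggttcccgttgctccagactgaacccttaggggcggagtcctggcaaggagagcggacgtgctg
Hmox1 3947 bp upstream, chr8:75089574-75089773: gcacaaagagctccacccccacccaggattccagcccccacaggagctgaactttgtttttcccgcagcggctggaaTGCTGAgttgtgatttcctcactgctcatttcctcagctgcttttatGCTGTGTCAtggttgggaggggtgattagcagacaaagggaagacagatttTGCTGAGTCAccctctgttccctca

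Maf peaks lay in the gene or within 50 kb of a start for 6 of the 10 antioxidant enzyme genes, against 30.6% of all protein-coding genes. Of these 6, Txnrd1 counted only through its most upstream start, which had no H3K27ac. From its marked starts the peak lay more than 50 kb away. Within 10 kb of a start, Hmox1, Srxn1, Prdx1, Txn1 and Gclc had a peak, which is 5 of 10, against 10.2% of all genes. Within 1 kb there were 4 of 10 (Hmox1, Srxn1, Prdx1 and Txn1), against 4.71% of all genes. The median distance to the nearest Maf peak was 16907 bp for the antioxidant enzyme genes (quartiles 158 and 131098 bp) and 124756 bp for all genes with a peak on their chromosome (quartiles 39058 and 333980 bp, n = 21644). The members fell into a near set within 4 bp to 3624 bp of a start and a far set of 4 genes without a peak in their window, with Txnrd1 in between at 30190 bp.

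**Figure D1:**
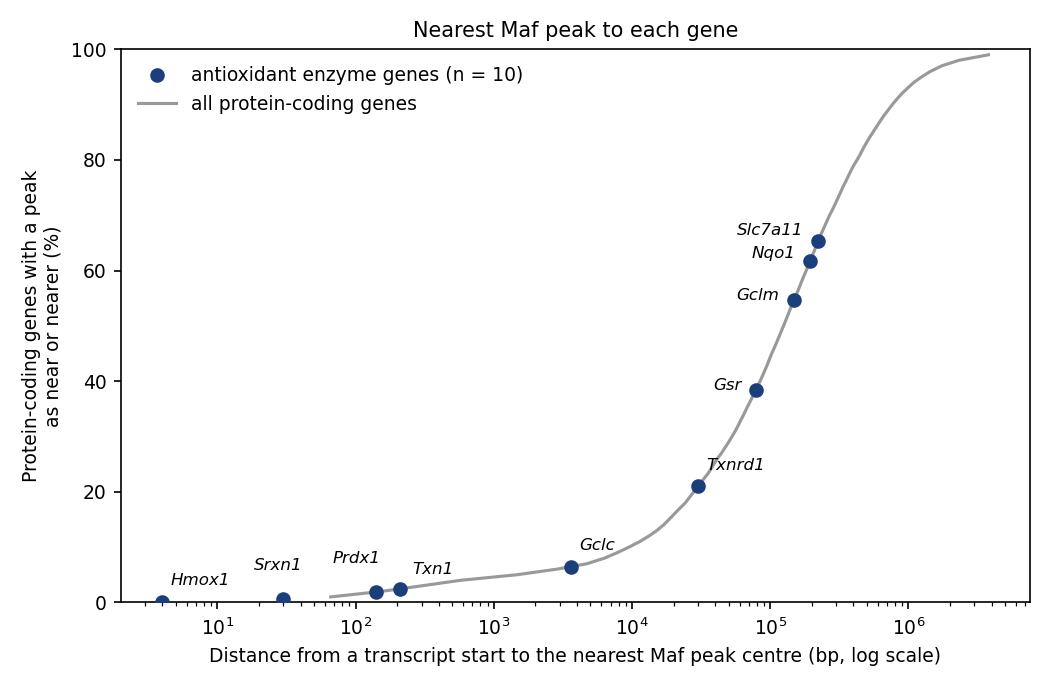
Distance in bp on a log scale (x axis) between a transcript start and the nearest Maf peak centre, against the percentage of protein-coding genes with a peak as near or nearer (y axis), for the 10 antioxidant enzyme genes (points) and all protein-coding genes (line). Hmox1, Srxn1, Prdx1 and Txn1 lie among the nearest 2.46% of genes, whereas Gclm, Nqo1 and Slc7a11 lie between 54.7% and 65.3%.

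H3K27ac covered a transcript start, within 1 kb, for 9 of the 10 genes in each replicate, against 58.3% of all genes in the joined lists. Slc7a11 was the exception. Among these 9 marked genes, 4 had a Maf peak within 1 kb, against 7.85% of all marked genes. Of the 9 Maf peaks in the windows, 7 overlapped H3K27ac, against 69.1% of all Maf peaks. These 7 peaks lay wholly inside regions called in both H3K27ac replicates. They stood 575 bp to 1826 bp from the nearer edge of the joined region, and edges in a single replicate can lie nearer. The 2 unmarked peaks were the distal Txnrd1 peak and the peak at Scrt2 in the Srxn1 window.

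**Figure D2:**
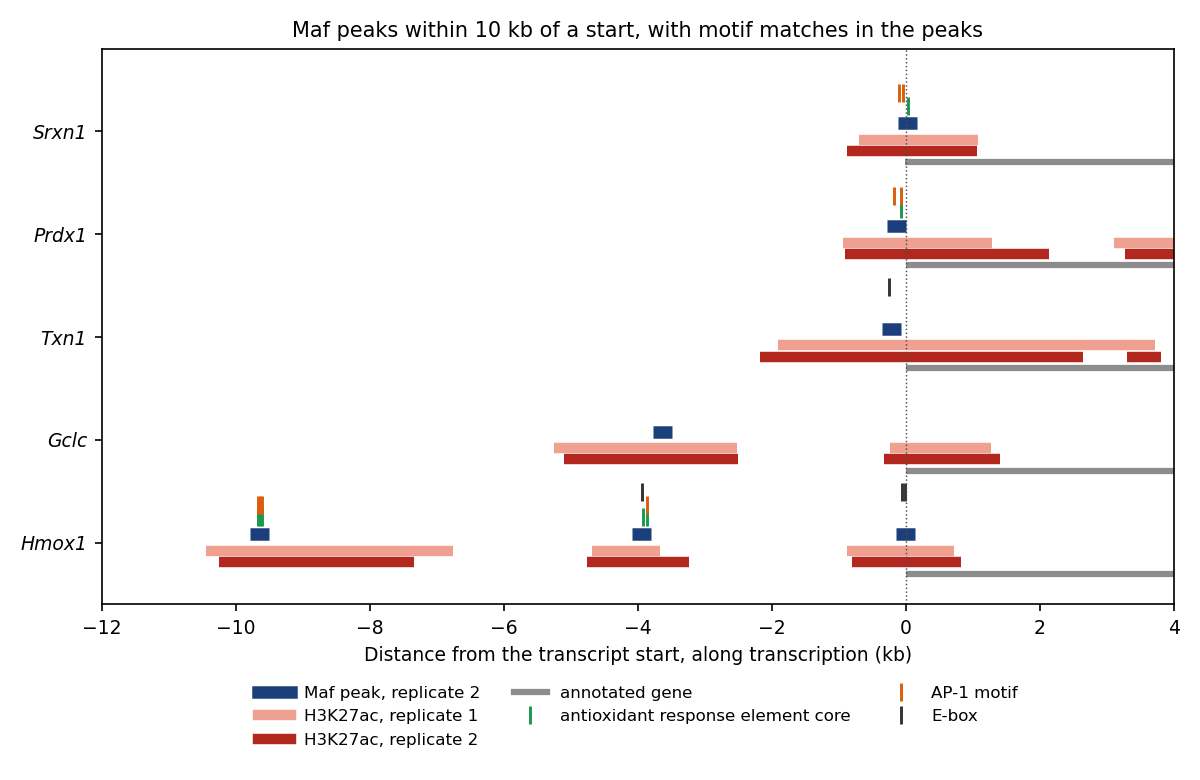
Maf peaks and H3K27ac regions of each replicate around the 5 transcript starts with a Maf peak within 10 kb, with distance from the start in kb on the x axis, 1 gene per row, and ticks for motif matches in the peaks. Each Maf peak shown was called in replicate 2 only and lies inside H3K27ac regions of both replicates.

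The glutathione branch starts with Slc7a11, the subunit of the cystine importer that supplies cysteine. Slc7a11 (ENSMUSG00000027737.10, chr3:49892526-50443614, minus strand) had no Maf peak in its window, and the nearest lay 222006 bp upstream. Neither of its starts had H3K27ac in either replicate, and the centre of the nearest region stood 109751 bp upstream. The annotated gene is long, giving a window of 601089 bp, and the 4 regions in it stood 338154 bp to 534750 bp into introns. Of these, 2 were 501 bp long and called in 1 replicate each. H3K27ac covered 0.64% of the window in replicate 1 and 0.668% in replicate 2. It was the only member below the lower quartile of all genes in joined coverage, at 0.765% against 0.985%.

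Gclc and Gclm encode the catalytic and modifier subunits of glutamate-cysteine ligase, the rate-limiting enzyme of glutathione synthesis. Gclc (ENSMUSG00000032350.9, chr9:77754535-77794485, plus strand) had 1 Maf peak at chr9:77750771-77751051, 3624 bp upstream of its nearest start and between genes. This peak lay in an H3K27ac region of 2752 bp that was separate from the start region of 1730 bp, and a further region of 2265 bp lay 12503 bp into the gene. It stood at position 3489 of the 5467 peaks in its list. The order of the list is not stated to follow strength, so such positions are given for orientation only. Gclm (ENSMUSG00000028124.15, chr3:122245557-122270732, plus strand) had no Maf peak within 50 kb, and the nearest lay 148539 bp downstream. Its start was marked in both replicates, by regions of 1672 and 1410 bp. The 2 subunit genes were thus alike in marked starts, both with joined regions shorter than the median of 2219 bp over all marked genes. They were unlike in Maf: 6.41% of genes had a peak as near as Gclc, and 54.7% as near as Gclm.

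Gsr encodes glutathione reductase, which returns oxidised glutathione to its reduced form. Gsr (ENSMUSG00000031584.16, chr8:33652523-33698163, plus strand) had no Maf peak within 50 kb, and its nearest peak lay 78776 bp downstream of a start. A window of 100 kb would add Gsr to the genes with a peak. Its start region measured 2414 bp in replicate 1 and 2185 bp in replicate 2. Further regions lay 2975, 7207 and 20266 bp into the gene, the last of them in replicate 2 only.

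Txn1 is the cytosolic thioredoxin, a small protein that reduces disulphides. Txn1 (ENSMUSG00000028367.5, chr4:57943373-57956411, minus strand) had a Maf peak at chr4:57956479-57956759, centred 208 bp upstream of its start, at position 2030. Its start region was the longest of the 10 genes in each replicate, at 5634 and 4818 bp. The joined region of 5979 bp was longer than that of 88.2% of the 12735 genes with a marked start. That single region made up most of the coverage of its window, which was 5.63% in replicate 1 and 5.82% in replicate 2.

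Txnrd1 is the cytosolic thioredoxin reductase, which recharges Txn1 with NADPH. Txnrd1 (ENSMUSG00000020250.10, chr10:82833951-82897712, plus strand) has several annotated starts, and they differed in their mark. The most upstream start had no H3K27ac in either replicate, while the starts 25228, 25256 and 26350 bp downstream of it were marked in both, by a region of 3303 bp in replicate 1 and 3600 bp in replicate 2. Its Maf peak at chr10:82803621-82803901 lay 30190 bp upstream of the unmarked start, had no H3K27ac, and stood at position 5172, close to the end of the list. Counting H3K27ac at the most upstream start alone, 8 of the 10 genes had a marked start.

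Prdx1 is a peroxiredoxin that reduces hydrogen peroxide and is in turn reduced by thioredoxin. Prdx1 (ENSMUSG00000028691.12, chr4:116685544-116700822, plus strand) had a Maf peak at chr4:116685263-116685543, centred 141 bp upstream of its start, at position 756. The peak ended 1 base before the annotated gene. The start region measured 2219 bp in replicate 1 and 3048 bp in replicate 2, and a second region of 1531 bp lay 3535 bp into the gene. The window also holds the starts of Akr1a1, Ccdc163, Mmachc and Tesk2, and no Maf peak in it lay nearer to one of these than to Prdx1.

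Srxn1 encodes sulfiredoxin, which restores peroxiredoxins that were over-oxidised by peroxide. Srxn1 (ENSMUSG00000032802.8, chr2:152105516-152111376, plus strand) had a Maf peak at chr2:152105414-152105694, centred 30 bp downstream of a start in the untranslated part of an exon. At position 116 it stood among the first 2.12% of its list, earlier than any other peak of the 10 genes. Only 0.545% of all genes with a peak on their chromosome had one as near. The start region was of ordinary length, with 1778 bp in replicate 1 and 1941 bp in replicate 2. A second peak in the window, at chr2:152081673-152081953, lay in an untranslated exon part of Scrt2, 284 bp from the Scrt2 start and 23711 bp upstream of Srxn1, and had no H3K27ac. Without it, 7 of the 8 peaks nearest to an antioxidant enzyme gene were marked.

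Nqo1 is a quinone reductase and a standard reporter of Nfe2l2 activity. Nqo1 (ENSMUSG00000003849.8, chr8:107388225-107403206, minus strand) had no Maf peak within 50 kb, and the nearest lay 194181 bp upstream, with 61.8% of genes as near. H3K27ac at its start measured 2625 bp in replicate 1 and 2743 bp in replicate 2, longer than the median of 2219 bp over all genes with a marked start.

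Hmox1 encodes haem oxygenase 1, which breaks haem down to biliverdin, iron and carbon monoxide. Hmox1 (ENSMUSG00000005413.8, chr8:75093621-75100589, plus strand) had 3 Maf peaks, more than any other of the 10 genes. They lay at chr8:75083840-75084120, chr8:75089534-75089814 and chr8:75093477-75093757, centred 9641, 3947 and 4 bp upstream of the nearest start. Their list positions were 509, 1409 and 3131, so the most distal peak stood earliest and the start peak latest. Each lay in an H3K27ac region of its own, of 3690, 1525 and 1699 bp. Only 0.0924% of all genes with a peak on their chromosome had one as near to a start as Hmox1.

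**Figure D3:**
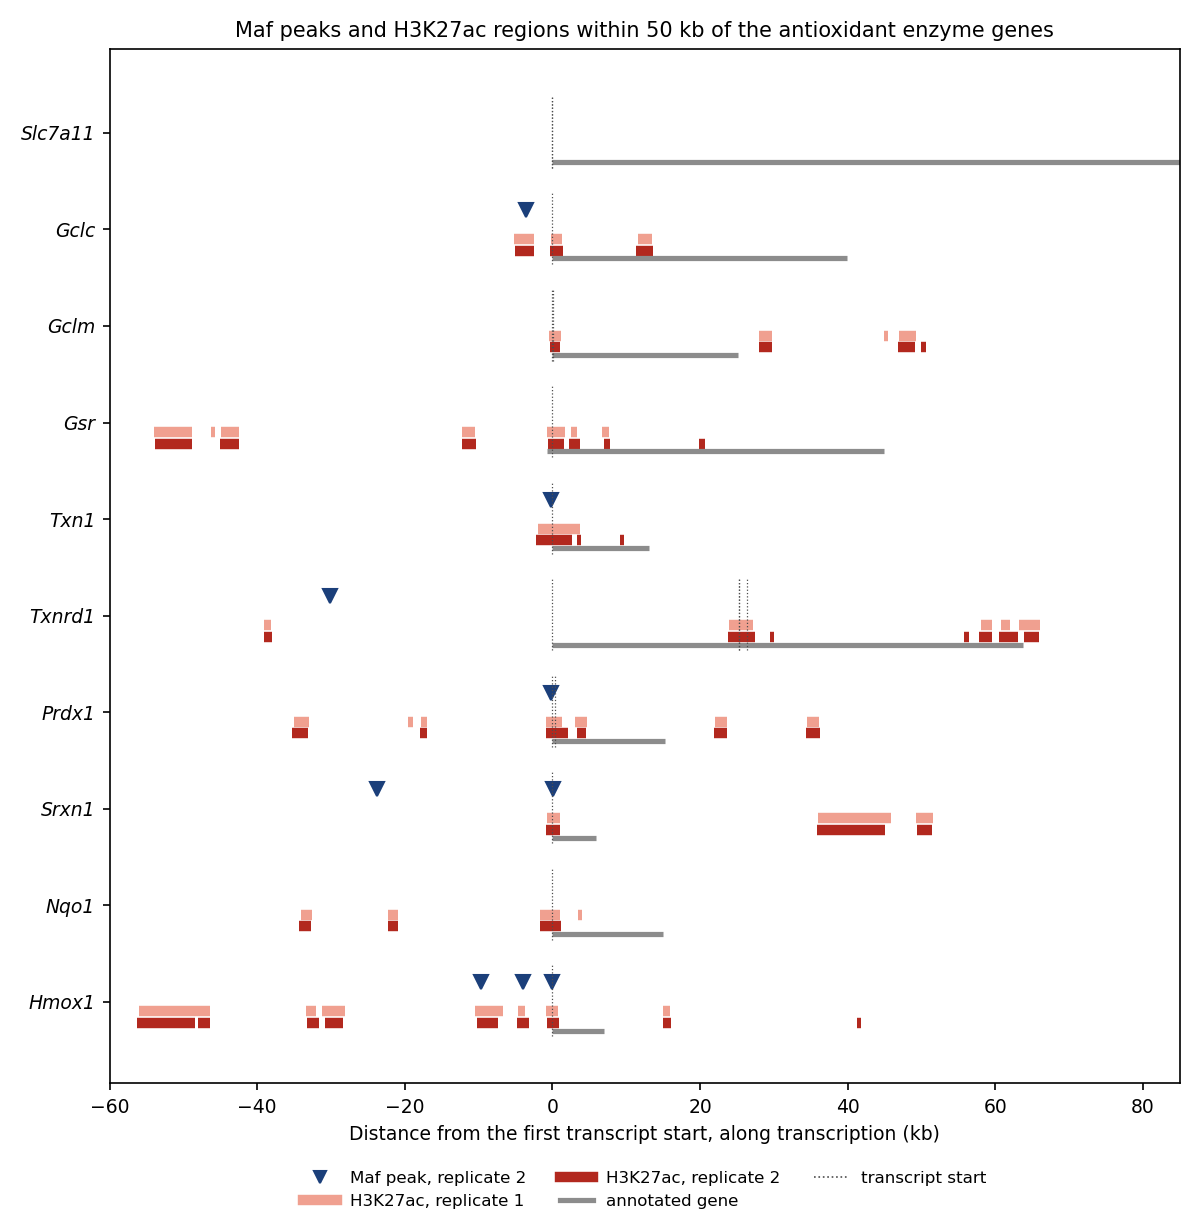
Map of the 10 genes, 1 per row, with Maf peaks of replicate 2 (triangles) and the H3K27ac regions of each replicate (bars) by distance from the first transcript start in kb (x axis). Hmox1 carries 3 marked Maf peaks, while Gsr, Gclm and Nqo1 carry H3K27ac without a Maf peak; the regions of Slc7a11 lie 338154 bp or more into the gene, beyond the axis.

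H3K27ac coverage of the windows was highest at Hmox1 and lowest at Slc7a11 in both replicates. Hmox1 was highest with 15.4% in replicate 1 and 14.7% in replicate 2 (15.1% ± 0.5, SD, n = 2). Srxn1 followed with 12.5% and 11.7% (12.1% ± 0.53), but its lower replicate stood nearer to the higher Prdx1 replicate than to its own other replicate. Its place also rested on the window: its joined coverage was 12.8% with 50 kb, 3.92% with 25 kb and 9.8% with 10 kb, where Txn1 had 28.1% and Prdx1 18.2%. With 25 kb, Hmox1 (16%) and Prdx1 (15.9%) were alike. Prdx1, with 10.6% and 11.0%, and Gsr, with 10.1% and 10.7%, had overlapping ranges and cannot be ordered. Txnrd1 had 7.89% and 9.7%, the largest gap between replicates. Gclc, with 6.13% and 6.58%, overlapped Gclm, with 6.35% and 5.48%, and Gclm overlapped both Nqo1 (5.88% and 5.68%) and Txn1 (5.63% and 5.82%). The medians were 7.12% for the antioxidant enzyme genes and 4.49% for all genes in replicate 1, and 8.14% and 4.54% in replicate 2. Of the joined covered bases, a median of 77.2% was shared by both replicates at the antioxidant enzyme genes, and 75.9% at all genes with coverage (n = 17280).

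**Figure D4:**
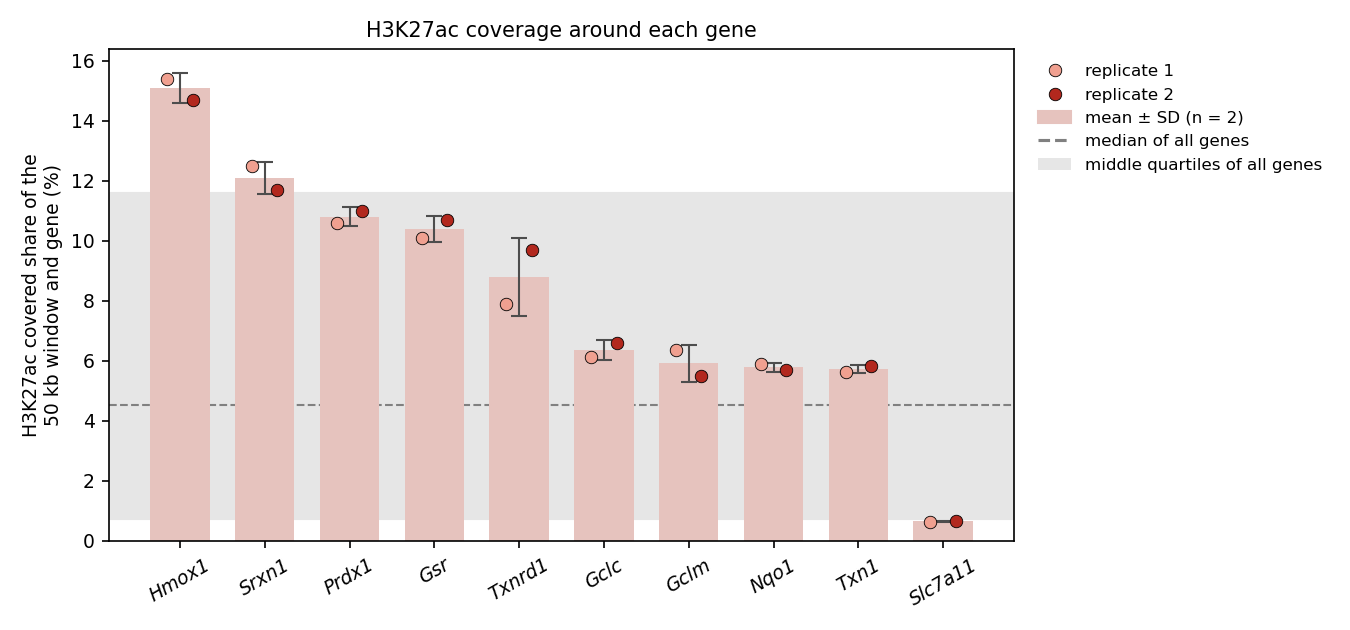
Percentage of each window covered by H3K27ac (y axis) for the 10 genes (x axis), with replicates 1 and 2 as points, bars for the mean and error bars for the SD (n = 2). Grey marks the median and the middle quartiles of the mean of both replicates over all 21827 genes, and 9 of the 10 genes stand above that median of 4.52%.

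Of 51 joined H3K27ac regions in the windows, 21 were nearest to a start of the antioxidant enzyme gene and 30 to a start of another gene, some of these in introns of Txnrd1 and Slc7a11 themselves. Both replicates held 39 of the 51 regions, against 67% of all joined regions. The 5 regions in replicate 1 only and the 7 in replicate 2 only were short, with a longest of 797 bp. The longest region in the Srxn1 window (10087 bp) was nearest to Tcf15, and the longest in the Hmox1 window (9929 bp) lay in an intron of Tom1. At the starts themselves, the joined regions had a median of 2414 bp in the 9 marked antioxidant enzyme genes and 2219 bp in all marked genes. By length they ran from Txn1 (5979 bp) over Txnrd1 (3600 bp), Prdx1 (3075 bp), Nqo1 (2743 bp), Gsr (2414 bp), Srxn1 (1960 bp), Gclc (1730 bp) and Hmox1 (1699 bp) to Gclm (1672 bp). Hmox1, highest in window coverage, was therefore among the shortest at its start, longer than 29.6% of marked genes.

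The central 200 bp of each Maf peak were searched on both strands for TGACNNNGC, for TGANTCA, for the Maf core TGCTGA and its extended form TGCTGAC, and for the E-box CAGCTG, a site type bound by myogenic factors. The motifs overlap, since GCTGAGTCA holds TGANTCA and, read on the other strand, TGACNNNGC. Of the 8 peaks nearest to an antioxidant enzyme gene, 4 held TGACNNNGC, against 19.4% of all 5485 peaks. The same 4 peaks held TGANTCA, against 12.4% of all peaks. They also held GCTGANTCA, against 7.38%, a motif that was chosen after these sequences had been seen. In the central 100 bp, TGACNNNGC was in 3 of the 8 peaks, against 13% of all peaks. There TGANTCA was in 2, against 8.09%, and GCTGANTCA in 1, against 5.56%. TGCTGAC was in 0 of the 8 peaks, against 20.9% of all peaks. TGCTGA was in 2, against 46.2%, and CAGCTG in 3, against 19.5%. With 8 peaks these shares are a description only.

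Positions are counted from the transcript start to the middle of a match. In the Prdx1 peak printed above, TGACNNNGC matched 74 bp upstream of the start, and TGANTCA matched 179 and 73 bp upstream. In Srxn1 the matches to TGANTCA stood 99 bp upstream, outside the central 200 bp, and 42 bp upstream, and the match to TGACNNNGC 32 bp downstream. The distal Hmox1 peak held 3 copies of TGACNNNGC, at 9668, 9640 and 9611 bp upstream, each overlapping a match to TGANTCA. As many copies were found in 8 of all 5485 peaks (0.146%). This peak is 1 of the 8, and the limit of 3 copies is its own count, so the share is a description only. The Hmox1 peak at 3947 bp upstream held 2 copies, at 3919 and 3867 bp upstream. With these Hmox1 peaks included, 1.42% of all peaks held 2 or more. Each Hmox1 copy has GCTGAGTCA or GCTGTGTCA in the letters shown. The Hmox1 start peak and the Txn1 peak held none of these but CAGCTG, and the Gclc and Txnrd1 peaks held none of the motifs searched.

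RefSeq promoter windows, from 250 bases before to 50 after a start in GRCm38.p6, were matched for 7 of the 10 genes and gave 9 windows. Hmox1, Gclc and Gsr were not matched. TGACNNNGC was in 4 of the 9 windows, against 12.4% of all 32851 windows. These belonged to Prdx1, Srxn1, Gclm and the downstream start of Txnrd1. The matches of Prdx1 and Srxn1, also those to TGANTCA, are the same sites as in their Maf peaks above, so they are not a separate observation. Gclm and the marked Txnrd1 start thus carried this sequence without a Maf peak, at 130 and 88 bp upstream of their RefSeq starts. TGANTCA was in 2 windows, those of Prdx1 and Srxn1, against 7.81% of all windows. TGCTGAC was in 0 of the 9 windows, against 4.67% of all windows. The shorter core TGCTGA was in 0, against 19.5%, and the E-box CAGCTG in 0, against 16.3%.

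The other genes of the response were taken from 5 lists with 61 genes. Of these, 29 had a Maf peak in the gene or within 50 kb of a start, against 30.6% of all genes. Where the nearest start had to be their own, 17 had one, and the share of all genes under that rule is not given here. A peak lay within 10 kb for 14, against 10.2% of all genes, and within 1 kb for 10, against 4.71%. H3K27ac lay at a start of 60, against 58.3% of all genes. Over all genes with a marked start, the share with a Maf peak within 1 kb was 7.85%. All 14 nearest peaks within 10 kb overlapped H3K27ac. The share of 69.1% over all Maf peaks includes distal ones, so it is not a matched reference for peaks chosen near starts. Across the genome, 1028 genes had Maf peaks at most 1 kb from a start, and 1000 of these genes also had a marked start. An excess of marked peaks in the lists can therefore not be read from these 14. Among 22 further glutathione genes, 3 had a peak within 10 kb, against 10.2% of all genes. The glutathione S-transferase gene Gstp1 had a peak centred 22 bp upstream of its start, at position 123. Gpx3, the secreted glutathione peroxidase, had one 3683 bp downstream, and Chac1, which degrades glutathione, had one 4627 bp downstream.

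Among 14 further thioredoxin and peroxiredoxin genes, 4 had a peak within 10 kb, against 10.2% of all genes. Msra, a methionine sulfoxide reductase, was the gene without H3K27ac at a start. Txnip, which binds and inhibits thioredoxin, had a peak 371 bp upstream at position 18, the earliest of the 14 peaks within 10 kb. Prdx5 had a peak 117 bp downstream of a start. The mitochondrial pair Txn2 and Txnrd2 had peaks 4821 and 529 bp upstream. Of 4 superoxide dismutase and catalase genes, Cat alone had a peak within 10 kb, 115 bp upstream, against 10.2% of all genes. Of 12 genes of haem, ferritin and NADPH supply, 2 had a peak within 10 kb, against the same 10.2%. They were Idh1, the cytosolic NADP-dependent isocitrate dehydrogenase, 7 bp upstream at position 201, and Pgd of the pentose phosphate pathway, 5467 bp upstream.

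Of 9 regulators of the response, 5 had a Maf peak in the gene or within 50 kb of a start, against 30.6% of all genes. Within 10 kb there were 4 of the 9, against 10.2% of all genes, and within 1 kb also 4, against 4.71%. By the 50 kb rule the other lists, in the order above, had 9 of 22, 6 of 14, 2 of 4 and 7 of 12 genes. Within 1 kb those lists had 1 of 22, 3 of 14, 1 of 4 and 1 of 12. Mafg, a small Maf protein, had a peak 70 bp upstream that was also called in replicate 1, and it held TGCTGAC, TGACNNNGC and TGANTCA. Nfe2l1, a relative of Nfe2l2, had one 21 bp upstream. Cul3, the scaffold of the ligase that degrades Nfe2l2, had one 518 bp upstream, and the repressor Bach1 had one 331 bp downstream. Nfe2l2 itself and its inhibitor Keap1, named here beyond the 10 kb limit because of their place in the pathway, had marked starts and nearest peaks at 721188 bp upstream and 93314 bp downstream.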

How the data were processed

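Nuclei were crosslinked and sheared, and the chromatin was split between Maf and H3K27ac immunoprecipitation. Per the labels' processing notes, the authors used bcl2fastq 2.17, FastQC, Bowtie2 2.3.2, Picard 2.10.3 and HOMER, with mm10 (GRCm38). They called peaks in each sample. An FDR threshold stands beside the Maf peak total in the paper, without saying to which list it applies. Other caller settings and the use of the inputs are not given in the sources used here. The deposited lists have 6 columns and a score of 1 for every peak, so peak height and depth are unknown and list position was used only as a description. The inputs were not analysed here.

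Overlapping or touching intervals of both replicates were joined. GENCODE M21 basic annotation gave 41433 transcript starts of 21827 protein-coding genes. Overlap needed 1 shared base. Coverage is the percentage of a window's bases inside regions. Distances run to the peak centre, and motifs were searched in 200 bp around it, with 100 bp and the whole peak as alternatives. The sequence of 1 Maf peak on an unplaced scaffold was not searched.

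The genes, lists and motifs were chosen with earlier results of these data known. All members were named, and of the other lists the genes with a Maf peak within 10 kb. The procedures were tested on simulated intervals. Python 3.11.15, numpy 2.4.6 and matplotlib 3.10.9 were used.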

Additional observations from a re-analysis of the deposited data

How the results depend on the processing

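The count of genes with a Maf peak rested on Maf replicate 2: leaving out each Maf replicate gave 0 to 6 genes, a median distance of 16907 to 9321162 bp, and 2 to 28 genes of the pathway lists. The first value of each count, and the larger distance, is without replicate 2, and no share of marked peaks could then be computed. With windows of 10, 25 and 100 kb, 5, 5 and 7 of the 10 genes had a Maf peak, and keeping the earlier 50% of each Maf list gave 4. The pathway lists gave 17 genes with a 10 kb window and 17 where the nearest start had to be their own. Shares of all genes under these alternatives are not given here. These alternatives for the lists were chosen after seeing the data. Median H3K27ac coverage was 7.12 to 8.14% with single replicates, 13.1% with a 10 kb window and 10.6% with 25 kb. The marked share of Maf peaks was 100% with a 10 kb window, and the share over all Maf peaks in such windows is not given here. No source states that equal replicate numbers mark shared chromatin, and with the replicate number as a block the share was 77.8%, as without it. It could not differ, since every Maf peak of the 10 genes was from replicate 2 and each marked one overlapped H3K27ac of replicate 2. The count of genes with a marked start was 8 or 9 under each alternative run. For single genes, 51 of 70 coverage values moved by more than the SD of their 2 replicates, and 10 of 30 distances moved, all without Maf replicate 2.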
